A study of Rattus norvegicus with 2 samples.

Results

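The growth hormone and insulin-like growth factor (IGF) axis of the liver was described through the spots whose symbol was Ghr, Igf1, Igf1r, Igf2, Igf2r, Igfals, Igfbp2, Igfbp3, Igfbp4 or Igfbp5. The members were chosen by symbol, and 12 of the 21766 library spots of each array carried one of these names. They covered 9 of the 10 genes. No spot in the tables used here carried the symbol Igf2, so this ligand gene was not analysed here. Igf1r had 3 spots, Igf2r had 2, and each of the other 7 genes had 1.

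Growth hormone acts on the liver through its receptor, encoded by Ghr, and the kinase JAK2, which activates STAT5 and so drives transcription of Igf1 and Igfals. Most circulating IGF-I travels in a complex with a binding protein, chiefly IGFBP3, and the acid-labile subunit encoded by Igfals. The axis depends on insulin: in insulin-deficient rats, hepatic Ghr and Igf1 expression is known to be low and some binding proteins are known to be raised.

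The samples were liver RNA of adult male Wistar rats made diabetic by 1 injection of streptozotocin at 65 mg/kg after a 12 h fast, and at 72 h their glycaemia was above 200 mg/dl. The protein given was γ-conglutin, which comes from lupin seeds, at a dose of 120 mg/kg in 0.9% NaCl. The vehicle was that saline alone, and treatment lasted 7 days. RNA of 5 rats per treatment was pooled, and the same 2 pools were labelled with opposite dyes on 2 arrays. Array 1 carried the γ-conglutin pool in Alexa647 and the vehicle pool in Alexa555, and array 2 carried the γ-conglutin pool in Alexa555 and the vehicle pool in Alexa647. Both pools came from diabetic rats, so the comparison holds no non-diabetic level. With 1 pool per treatment the arrays are technical repeats, so no p-value over rats can be given and an SD over 2 arrays shows only how far the arrays differed. In bulk liver, fewer cells of a type and less RNA per cell cannot be told apart.

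The spots are described as mouse transcripts and were hybridised with rat cDNA. Across the 21702 probes kept, pool ratios on array 1 and array 2 ran opposite ways, with r = -0.44 (Pearson) and rho = -0.45 (Spearman), a description over probes that share 2 hybridisations. Most probes were thus brighter in the same dye on both arrays after normalization, and every direction below rests on the dye labels. Probes of one name were also unlike each other over the 1023 genes with several probes. The mean log2 intensities of 2 probes of a gene, taken in random order, had an r of 0.03. The mean log2 ratios of the 2 brightest probes of a gene had an r of 0.04. All 13 hepatocyte markers with a probe, such as Alb and Ttr, gave readings above the 95th percentile of empty spots in both channels of both arrays. So did 94.3% of all probes and all 5 measured markers of pituitary and muscle, among them Gh, Prl and Ckm, so detection did not tell liver from other tissue. Markers of other liver cells were above that limit for 5 of 8 stellate cell, 3 of 5 endothelial and 5 of 5 macrophage genes. Among them, Oit3 of endothelium was past a log2 ratio of 0.32 on both arrays, with -0.50 on array 1 and -0.44 on array 2. The other endothelial genes measured had opposite signs between the arrays, such as Kdr with -0.26 on array 1 and 0.72 on array 2. The part of Oit3 in the results below was not tested. Whether the spot positions match the annotation could not be settled from the files. Each gene name below therefore stands for the spot that carries it, and if the annotation is displaced its value is not that of the gene.

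Intensities over background are given first, before normalization, because they show what each spot emitted. The median library spot read 1240 in the γ-conglutin pool and 1646 in the vehicle pool on array 1, and 1595 in the γ-conglutin pool and 1132 in the vehicle pool on array 2. Alexa555 was thus the brighter dye on both arrays, and only the log2 ratios, which were normalized within each array by loess, compare the pools. The 95th percentile of empty spots, used as the limit of detection, was 30.1 for the γ-conglutin pool and 42.5 for the vehicle pool on array 1, and 52.2 for the γ-conglutin pool and 36.0 for the vehicle pool on array 2. Of the 12 member spots, 11 exceeded the limit in all 4 readings, and the Ghr spot exceeded it in 0.

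**Figure D1:**
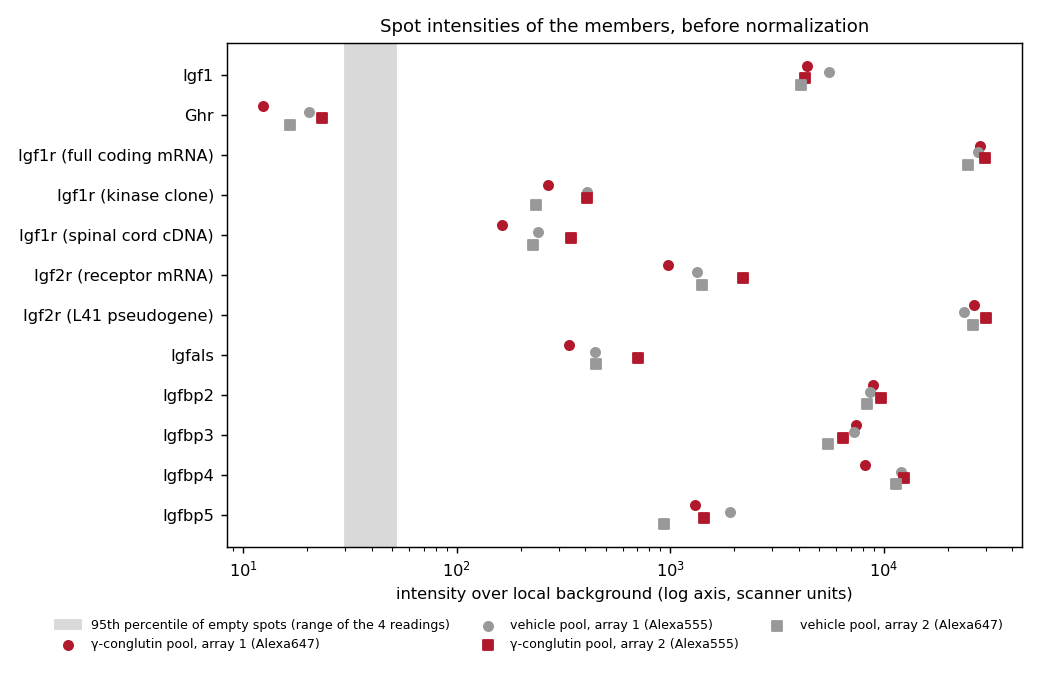
Intensity over local background of each member spot (log axis, scanner units) before normalization, with red for the γ-conglutin pool, grey for the vehicle pool, circles for array 1 and squares for array 2. The grey band spans the 95th percentiles of empty spots, from 30.1 to 52.2, and the Ghr spot lies below it in all 4 readings.

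The pools were compared to ask whether transcripts of this axis differed in diabetic liver after γ-conglutin was given. None of the 9 genes differed by 1.5-fold in the same direction on both arrays: 0 were higher and 0 were lower, where 0% of all probes were higher and 0% were lower. On single arrays 0 of 12 member spots passed 1.5-fold in either direction, against 0.977% of all probes on array 1 and 3.01% on array 2. Past a log2 ratio of 0.32 in either direction were 1 member spot on array 1 (10.7% of all probes) and 2 on array 2 (16.3%). At a log2 ratio of 0.32 on both arrays 0 of 9 were again higher and 0 of 9 lower, against 0.00461% and 0.304% of all probes. The lowest mean ratios were those of Igfbp4 at -0.24 ± 0.22 and Igf1 at -0.19 ± 0.21 (SD, n = 2 arrays), and the highest was that of Igf1r at 0.12 ± 0.31. If the dye labels of array 2 were exchanged, the order would differ: Igf1r would be lowest at -0.22 and Igfbp3 highest at 0.20, with Igfbp4 at -0.16 and Igf1 at 0.15. Exchanged labels on array 1 would turn the sign of each of these. Ratios had one sign on both arrays for 4 of 9 genes, against 32.7% of all probes. Igfals was positive on both (16.6% of probes were), and Igf1, Ghr and Igfbp4 were negative on both (16.1% of probes were). The median of the 9 mean ratios was 0.04, against 0.01 over all probes. Taken on each array alone the median was -0.05, of the opposite sign.

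**Figure D2:**
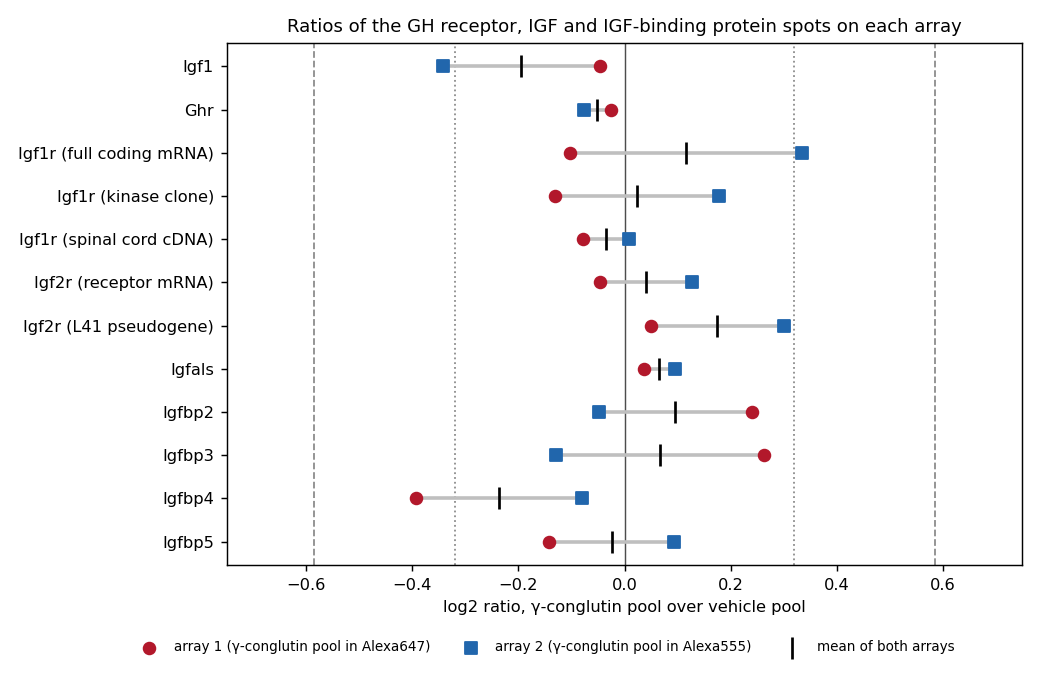
Log2 ratio of γ-conglutin over vehicle for each member spot on array 1 (circles) and array 2 (squares), with the mean as a bar; dashed lines mark 1.5-fold and dotted lines a log2 ratio of 0.32. No spot passes a dashed line, and Igfbp4 on array 1 and Igf1 and the full coding mRNA spot of Igf1r on array 2 pass a dotted line.

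Igf1 encodes the ligand IGF-I, most of which in blood comes from hepatocytes. On array 1 its spot, described as the mouse Igf1 mRNA, read 4377 over background in the γ-conglutin pool and 5518 in the vehicle pool. On array 2 it read 4301 in the γ-conglutin pool and 4095 in the vehicle pool. After normalization the log2 ratio was -0.05 on array 1 and -0.34 on array 2, so both arrays placed the γ-conglutin pool lower but by unlike amounts. The mean of -0.19 ± 0.21 equals a fold of 0.874, and 8.49% of all probes had a mean ratio as low or lower. The sign on array 1 changed with the setting: it was 0.12 after loess fitted within each printed block and 0.19 with the authors' deposited net intensities, and array 2 stayed negative with -0.49 and -0.44.

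Ghr encodes the growth hormone receptor, for which liver is a main target tissue. Its spot read 12.4 over background in the γ-conglutin pool and 20.4 in the vehicle pool on array 1, and 23.5 in the γ-conglutin pool and 16.6 in the vehicle pool on array 2. In all 4 readings the spot was not above the empty-spot limit, and the Alexa555 reading was the larger on each array. The log2 ratio was -0.03 on array 1 and -0.08 on array 2, a mean of -0.05 ± 0.04. With the offset lowered to 16 and nothing else changed, the mean was -0.10. It was -0.21 after plain subtraction and -0.27 with the deposited net intensities, which replace the background correction as well. A difference in Ghr was not detectable at this signal.

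Igf1r encodes the receptor tyrosine kinase that binds IGF-I. Its 3 spots stand for different sequences: a complete coding mRNA, a partial kinase clone and a spinal cord cDNA. The complete coding mRNA spot read 28248 over background in the γ-conglutin pool and 27683 in the vehicle pool on array 1, and 29722 in the γ-conglutin pool and 24893 in the vehicle pool on array 2. After normalization the log2 ratio was -0.10 on array 1 and 0.33 on array 2, with opposite signs and a mean of 0.12 ± 0.31.

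The kinase clone spot of Igf1r read 269 over background in the γ-conglutin pool and 407 in the vehicle pool on array 1, and 406 in the γ-conglutin pool and 236 in the vehicle pool on array 2. Normalized, its log2 ratio was -0.13 on array 1 and 0.18 on array 2 (mean 0.02 ± 0.22). The spinal cord cDNA spot read 163 in the γ-conglutin pool and 241 in the vehicle pool on array 1, and 342 in the γ-conglutin pool and 227 in the vehicle pool on array 2. This spot had a log2 ratio of -0.08 on array 1 and 0.01 on array 2 (mean -0.04 ± 0.06). That last spot was uneven, with a pixel SD of 42.8% to 64.0% of its mean over the 4 readings, against 3.26% to 17.7% over the readings of the other 11 spots. All 3 spots of Igf1r were thus negative on array 1 and positive on array 2, so after normalization they were brighter in Alexa555 on both.

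Igf2r encodes the cation-independent mannose 6-phosphate receptor, which clears IGF-II. The spot described as its mRNA read 974 over background in the γ-conglutin pool and 1338 in the vehicle pool on array 1, and 2197 in the γ-conglutin pool and 1415 in the vehicle pool on array 2. The log2 ratio was -0.05 on array 1 and 0.13 on array 2, a mean of 0.04 ± 0.12 with opposite signs.

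The second spot with the symbol Igf2r was described in the file as a ribosomal protein L41 pseudogene in a genomic sequence that holds Igf2r, so its name does not stand for the receptor mRNA. It read 26398 over background in the γ-conglutin pool and 23836 in the vehicle pool on array 1, and 30201 in the γ-conglutin pool and 26092 in the vehicle pool on array 2. The pseudogene spot had a log2 ratio of 0.05 on array 1 and 0.30 on array 2 (mean 0.18 ± 0.18), the highest mean of the 12 spots, with 3.28% of probes as high or higher. The Rpl41 spot elsewhere on the array, which encodes the ribosomal protein itself, had 0.12 on array 1 and 0.08 on array 2. A spot without a symbol, described as an mRNA for an L41-like protein, had -0.12 on array 1 and -0.42 on array 2. The 3 spots with an L41 description thus did not share a direction. The pseudogene spot was left out of the counts over 9 genes, a choice made from its description after the file was read.

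Igfals encodes the acid-labile subunit, a hepatocyte product that holds IGF-I and IGFBP3 in the circulation. Its spot read 335 over background in the γ-conglutin pool and 443 in the vehicle pool on array 1, and 710 in the γ-conglutin pool and 451 in the vehicle pool on array 2. The log2 ratio was 0.04 on array 1 and 0.09 on array 2, so the arrays gave one sign, and the mean of 0.07 ± 0.04 equals a fold of 1.05. At that size 24.4% of all probes had a mean ratio as high or higher. Under the 7 settings compared, Igfals had one sign on both arrays in 6, the most of any member gene together with Igfbp4. These settings reprocess the same 2 arrays, and the share of all probes that reach such a count is not given here.

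The binding proteins carry IGFs and set how much reaches the receptor. Igfbp2, whose hepatic expression is known to rise when insulin is low, read 8909 over background in the γ-conglutin pool and 8622 in the vehicle pool on array 1, and 9702 in the γ-conglutin pool and 8334 in the vehicle pool on array 2. The log2 ratio of Igfbp2 was 0.24 on array 1 and -0.05 on array 2, a mean of 0.10 ± 0.20 with opposite signs. Igfbp3, the main carrier of IGF-I in blood, read 7434 in the γ-conglutin pool and 7239 in the vehicle pool on array 1, and 6419 in the γ-conglutin pool and 5485 in the vehicle pool on array 2. Its log2 ratio was 0.26 on array 1 and -0.13 on array 2 (mean 0.07 ± 0.28), again with opposite signs. For both genes Alexa647 was the brighter dye on each array after normalization.

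Igfbp4, a binding protein that mostly restrains IGF action, had the lowest mean ratio of the members. Its spot read 8141 over background in the γ-conglutin pool and 12034 in the vehicle pool on array 1, and 12396 in the γ-conglutin pool and 11437 in the vehicle pool on array 2. The log2 ratio was -0.39 on array 1 and -0.08 on array 2, so both arrays placed the γ-conglutin pool lower, but the gap between the arrays (0.31) exceeded the size of the mean, -0.24 ± 0.22. The mean equals a fold of 0.849, and 5.98% of all probes had one as low or lower. The 231 Gapdh control spots, which share 1 accession, gave a measure of error between spots: their log2 ratios had an SD of 0.12 on each array. They averaged -0.29 on array 1, -0.18 on array 2 and -0.23 over both. The ratio of Igfbp4 lay within 1 SD of the control mean on each array, and its mean was close to theirs. The mean of Igf1, -0.19, was also close to the control mean, but its single arrays were not. Its ratio was -0.05 on array 1, above the control mean, and -0.34 on array 2, below it, each by more than 1 SD.

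Igfbp5, a binding protein that also attaches to extracellular matrix, read 1310 over background in the γ-conglutin pool and 1909 in the vehicle pool on array 1, and 1438 in the γ-conglutin pool and 937 in the vehicle pool on array 2. Its log2 ratio was -0.14 on array 1 and 0.09 on array 2 (mean -0.02 ± 0.17), so the arrays disagreed in sign. Igfbp2 and Igfbp5 are neighbouring genes, with 0 protein-coding genes between them in the rat assembly GRCr8. Their ratios had opposite signs on array 1 and again on array 2. Of the 4 binding protein genes, 3 had opposite signs between the arrays and Igfbp4 did not, where 67.3% of all probes had opposite signs, so the count is near the background.

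In 7 of the 12 spots the same dye was the brighter on both arrays after normalization. It was Alexa647 in 2 (Igfbp2 and Igfbp3) and Alexa555 in 5 (the 3 Igf1r spots, the receptor mRNA spot of Igf2r, and Igfbp5). Over all probes the share was 67.3%, so the members did not stand apart in this. The mean log2 ratio of Alexa647 over Alexa555 was 0.20 for Igfbp3, against a mean pool ratio of 0.07. For the complete coding mRNA spot of Igf1r the mean dye ratio was -0.22, against a mean pool ratio of 0.12. Over all probes the SD of the mean dye ratio was 0.19 and that of the mean pool ratio 0.12.

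**Figure D3:**
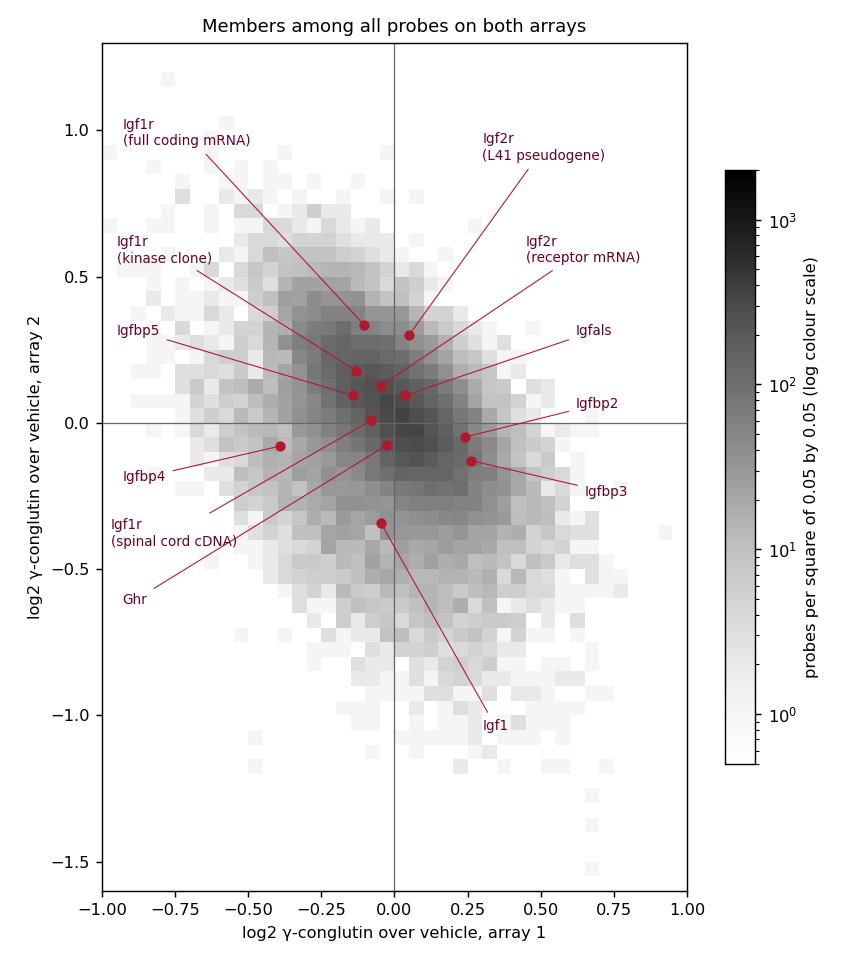
Log2 ratio of γ-conglutin over vehicle on array 1 (horizontal) against array 2 (vertical), with the number of all 21702 probes per square in grey and the 12 member spots in red. The cloud of probes runs from upper left to lower right (r = -0.44), and 7 of the 12 member spots lie in those 2 quadrants.

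The mean of both arrays kept its sign for each of the 12 spots under all 7 settings, while the single arrays did not. The mean of Igfbp4 ran from -0.28 to -0.23 and that of Igf1 from -0.19 to -0.10. Igf1r (complete coding mRNA) ran from 0.08 to 0.16 and Igfbp2 from 0.07 to 0.15. The Ghr mean was the most unstable, from -0.27 to -0.05. In number of settings with one sign on both arrays, Igfbp4 and Igfals had 6, Ghr 5 and Igf1 4 of 7. All settings reprocess the same arrays, so these counts are not repeats.

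**Figure D4:**
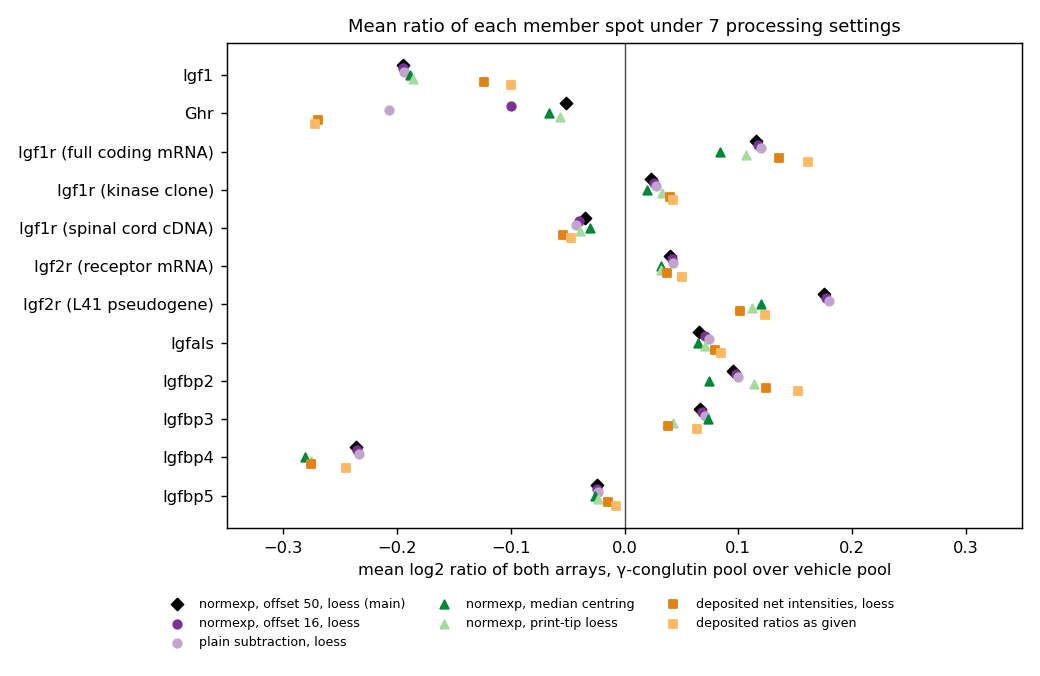
Mean log2 ratio of both arrays (γ-conglutin over vehicle) for each member spot under 7 combinations of background correction and normalization, with the main setting as a black diamond. Each spot stays on one side of 0, and Ghr spreads from -0.27 to -0.05.

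Genes that act with this axis were taken as 3 further lists, and none held a gene past 1.5-fold or past a log2 ratio of 0.32 on both arrays. Other binding and processing genes of the IGF system had 13 of 17 members measured, of which 2 had one sign on both arrays, and a median of 0.03. Igfbpl1, which encodes a protein like the IGF-binding proteins, had 0.13 on array 1 and 0.14 on array 2. Mmp2, a matrix protease, had -0.04 on array 1 and -0.13 on array 2. Insr, the insulin receptor gene, had 0.22 on array 1 and -0.02 on array 2, with opposite signs.

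Growth hormone receptor signalling had 16 of 18 genes measured, of which 3 were positive and 1 was negative on both arrays, and a median of 0.02. Cish, a STAT5-induced inhibitor of cytokine receptor signalling, had the highest mean, with 0.02 on array 1 and 0.29 on array 2. Sh2b1, an adaptor that binds JAK2, had the lowest, with -0.15 on array 1 and -0.28 on array 2. Adam17, a protease that sheds the growth hormone receptor, had 0.03 on array 1 and 0.22 on array 2, and the exchange factor gene Sos1 had 0.02 and 0.04. The kinase gene Jak2 had 0.13 on array 1 and -0.09 on array 2, and Stat5a had -0.13 and 0.05, so the arrays disagreed for both. Socs2, a feedback inhibitor induced by growth hormone, had 0.22 on array 1 and -0.63 on array 2, the widest gap of this list. Stat5b was not analysed here.

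Liver genes known to follow growth hormone in rodents had 15 of 20 listed symbols measured and a median of -0.05, against 0.01 over all genes. Hnf6, a listed symbol without a spot, is another name of Onecut1, which was measured. The list was not split by the direction in which growth hormone moves each gene, so its median is no measure of growth hormone action. The 13 hepatocyte markers also had a median of -0.05, although it was 0.05 on array 1 alone and 0.01 on array 2 alone. In all 3 further lists the arrays disagreed in the sign of the median. It was -0.18 on array 1 and 0.09 on array 2 for the liver genes, 0.02 and -0.02 for IGF binding and processing, and 0.02 and -0.01 for growth hormone receptor signalling. Both arrays were negative for Egfr, the epidermal growth factor receptor gene (-0.20 on array 1 and -0.12 on array 2), and for Elovl3, a fatty acid elongase gene (-0.08 and -0.04). Both were positive for the transcription factor genes Cux2 (0.09 on array 1 and 0.17 on array 2) and Onecut1 (0.03 and 0.06). Over all genes 5541 of 17157 had one sign on both arrays, and the lists had 2 of 13, 4 of 16 and 4 of 15. These counts moved with the setting: IGF binding and processing had 4 with median centring and with print-tip loess, and the liver genes had 1 with median centring and 2 with deposited ratios.

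**Figure D5:**
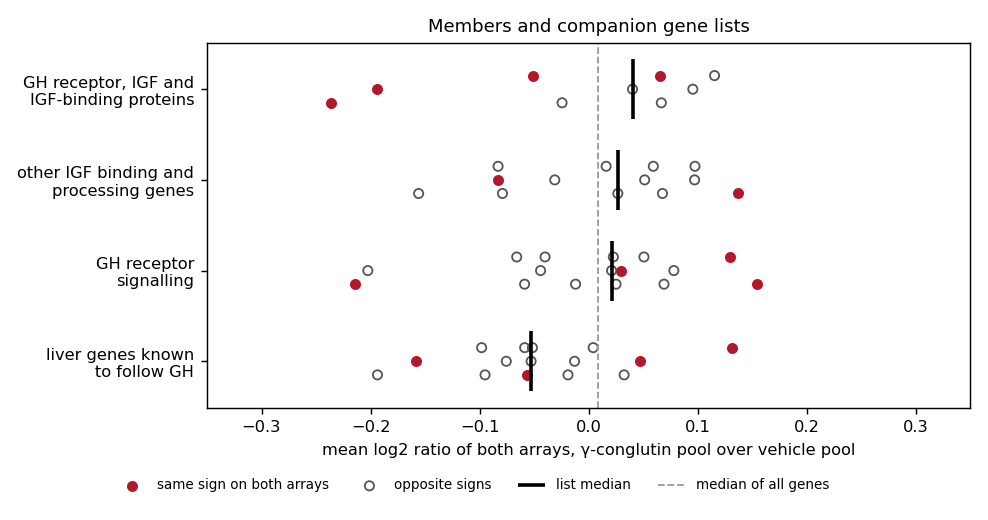
Mean log2 ratio of both arrays (γ-conglutin over vehicle) for each gene of the 9 members and of 3 companion lists, filled where both arrays gave one sign and open where they did not; vertical bars are list medians and the dashed line is the median of all genes. List medians lie between -0.05 and 0.04, and most points are open.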

How the data were processed

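Liver cDNA of both pools was measured on dye-swapped arrays of 23232 spots, read as deposited. Per the file headers, each table holds raw, background and net intensity per dye, pixel SDs, and a ratio. The authors' deposited ratio is Alexa555 over Alexa647, and the deposited log2 values equal its log2 on both arrays. Image software was not given in the sources used here. Raw and background intensities were corrected by normexp (offset 50) and normalized by loess per array, with 231 Gapdh control spots and 1235 empty spots at weight 0 (limma 3.58.1, R 4.3.3). Ratios are γ-conglutin over vehicle, so array 2 changed sign. Spots of the same accession and description were averaged. A filter required 2 SD above background in 1 or more channels on each array, which kept 21702 probes and removed 59. A gene takes its brightest probe, except Igf2r. Background correction and loess were tested on these arrays with known folds put into some library spots. Summaries used Python 3.11.15 and pandas 2.3.3. Members, lists and the naming rule (every member, 6 fixed signalling genes, and up to 4 genes of one sign with the largest means per list) were chosen with earlier results of these data known. No test over rats was possible. The number of arrays limits the precision. Alternatives covered background, normalization, filters, probe choice and single arrays.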

Additional observations from a re-analysis of the deposited data

How the results depend on the processing

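No member passed 1.5-fold under any of the 14 alternatives run, including 2-fold, each array alone and the deposited values. At a log2 ratio of 0.32 the count over 9 genes was 0 with both arrays under every setting compared, and 1 to 2 on single arrays. Genes of one sign numbered 4, and 2 to 6 over the alternatives: 2 with median centring, 3 above the empty limit, 5 with net intensities, the brightest Igf2r spot or the sign of array 2 turned, and 6 with deposited ratios. With print-tip loess the count was again 4, but Igf1 and Ghr had opposite signs and Igf1r and Igfbp2 one sign. Of all probes, 32.7% had one sign in the main setting and 67.3% with the sign of array 2 turned. The share over all probes under the other settings is not given here. The median of 0.04 appeared on neither array alone (-0.049 to -0.046) and was -0.029 with the sign of array 2 turned. With both arrays it was 0.043 after plain subtraction, 0.037 with net intensities, 0.032 with median centring and with print-tip loess, 0.035 as the mean over probes, 0.053 above the empty limit and 0.050 with deposited ratios. It was 0.066 with the brightest Igf2r spot. Of 89 member ratios recomputed with both arrays, 84 moved by less than the SD over the arrays and 5 by more, 4 of them for Ghr. Deposited ratios, the Igf2r choice and the turned sign were chosen after seeing the data. Causes were not tested, save the offset, which by construction shrinks dim ratios. No paired analysis was possible because each treatment has 1 pool, so the within-array ratios hold no repeated pair of pools. The count of one sign has no value on 1 array.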

Other observations

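A pair of spots next to this axis carried none of the member symbols and were chosen after their values were seen. A spot without a symbol, described in the file as similar to the precursor of IGF-binding protein 1, a hepatic gene that insulin represses, read 13815 over background in the γ-conglutin pool and 16872 in the vehicle pool on array 1. On array 2 it read 15788 in the γ-conglutin pool and 13699 in the vehicle pool. Its log2 ratio was -0.23 on array 1 and 0.07 on array 2, a mean of -0.08 ± 0.21 (SD, n = 2 arrays), so the arrays disagreed in sign.

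Igf2as, an imprinted antisense transcript of the Igf2 locus, read 65423 over background in the γ-conglutin pool and 38073 in the vehicle pool on array 1, and 37280 in the γ-conglutin pool and 58326 in the vehicle pool on array 2. Its raw reading in the γ-conglutin pool on array 1 was 65476, close to the ceiling of that channel, at which 3 spots stood. The spot was thus at or near saturation in Alexa647 on array 1, and no ratio is given. The level of Igf2 itself cannot be read from this antisense spot.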
